A study of Drosophila melanogaster with 2 samples.

Results

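Divergent, or head-to-head, gene pairs are neighbouring genes transcribed away from each other from start sites that lie close together. The peaks described here are those of the CG3407 protein whose summit, the base of highest signal, lay within 500 bp of the transcription start sites (TSSs) of 2 protein-coding genes that form such a pair: the minus-strand TSS left of the plus-strand TSS, at most 1000 bp apart on the dm6 assembly. They numbered 500 of the 4089 peaks in the list that passed the irreproducible discovery rate (IDR) procedure, which compares the ranks of peaks between replicates. The chromatin came from whole embryos of mixed sex, aged 0 to 14 h, of a transgenic line, CG3407-GFP, that stably expresses CG3407 with green fluorescent protein at its C-terminus. A single line was used, all its embryos carry the tagged protein, and there were 2 biological replicates and 1 group, so no condition was compared. The labels name CG3407 as the antibody and transcription factor ChIP-seq as the assay, but their free text calls each library an input control. The lists were read as ChIP peaks made against 1 control file. Peaks of an untagged line were not analysed here.

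In Drosophila, whose genome is compact, many widely expressed genes sit in divergent pairs, and both promoters then share the DNA between the start sites. That DNA is usually free of nucleosomes, while the first nucleosome lies just downstream of each TSS. Promoters of this kind often carry the DNA replication-related element (DRE), which the factor Dref binds, or Motif 1, and few have a TATA box at the usual place. The insulator proteins BEAF-32 and Cp190 are known for binding between divergent genes.

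The sequences between the TSSs of 7 strong pairs are printed first, because they show where the summit fell and what the DNA there is like. The last of them is a short gap with its summit outside. Each runs 5′ to 3′ on the plus strand from the base after the minus-strand TSS to the base before the plus-strand TSS, from RefSeq's copy of the dm6 assembly, and the capitals mark the 21 bases centred on the summit. Art3/mRpS10 (chr3R:15229409-15229664) joins an arginine methyltransferase with a protein of the small mitochondrial ribosomal subunit. Tcs5/CHMP2B (chr3L:5139396-5139618) joins a gene of tRNA modification with an ESCRT-III membrane-remodelling subunit. Lon/PIG-F (chr3L:19612200-19612454) joins a mitochondrial protease with a gene of GPI anchor synthesis. The fws/Lamtor3 gap (chr2L:17481030-17481230) joins a subunit of the Golgi tethering complex COG with a subunit of the lysosomal Ragulator, and Cp190/CG4338 (chr3R:15275242-15275521) holds the promoter of the insulator protein named above. RpS27/Nup37 (chr3R:25247515-25247657) joins a cytosolic ribosomal protein with a nuclear pore subunit. Ripalpha/RpL7 (chr2L:10200975-10201003) joins a gene whose product interacts with replication protein A with another ribosomal protein.
Art3/mRpS10: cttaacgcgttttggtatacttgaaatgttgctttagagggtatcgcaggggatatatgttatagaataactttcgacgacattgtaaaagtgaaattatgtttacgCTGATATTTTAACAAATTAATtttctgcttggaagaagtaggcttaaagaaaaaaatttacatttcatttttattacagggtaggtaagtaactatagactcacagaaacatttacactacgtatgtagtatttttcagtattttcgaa
Tcs5/CHMP2B: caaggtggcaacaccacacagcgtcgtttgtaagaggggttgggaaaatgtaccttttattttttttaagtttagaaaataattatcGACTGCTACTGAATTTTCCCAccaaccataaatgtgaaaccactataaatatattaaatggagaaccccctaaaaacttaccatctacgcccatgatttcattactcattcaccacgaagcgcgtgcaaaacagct
Lon/PIG-F: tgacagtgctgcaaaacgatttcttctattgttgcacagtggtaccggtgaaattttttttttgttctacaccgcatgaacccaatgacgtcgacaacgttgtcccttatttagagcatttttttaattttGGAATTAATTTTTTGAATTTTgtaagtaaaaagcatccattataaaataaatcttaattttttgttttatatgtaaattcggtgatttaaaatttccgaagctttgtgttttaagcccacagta
fws/Lamtor3: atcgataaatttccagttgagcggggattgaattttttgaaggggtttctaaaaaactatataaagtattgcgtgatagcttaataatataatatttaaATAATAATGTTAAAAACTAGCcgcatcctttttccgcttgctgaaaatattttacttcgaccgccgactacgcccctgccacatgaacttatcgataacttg
Cp190/CG4338: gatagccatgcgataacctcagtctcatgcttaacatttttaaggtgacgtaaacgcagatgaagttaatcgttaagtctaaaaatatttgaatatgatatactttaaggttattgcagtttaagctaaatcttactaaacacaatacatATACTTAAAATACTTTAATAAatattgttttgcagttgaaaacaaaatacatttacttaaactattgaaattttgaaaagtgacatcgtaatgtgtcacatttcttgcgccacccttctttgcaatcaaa
RpS27/Nup37: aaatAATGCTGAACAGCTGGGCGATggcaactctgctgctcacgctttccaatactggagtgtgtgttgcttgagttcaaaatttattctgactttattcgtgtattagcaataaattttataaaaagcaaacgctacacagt
Ripalpha/RpL7: cccactccgcggccagtgtgaccgtttgg

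The gap of Art3/mRpS10 is 30.1% G or C, that of Lon/PIG-F 30.6%, that of fws/Lamtor3 34.3%, that of Cp190/CG4338 28.9% and that of Tcs5/CHMP2B 38.1%. Of the 21 capitals, 3 are G or C in Art3/mRpS10, 3 in Lon/PIG-F, 4 in fws/Lamtor3 and 2 in Cp190/CG4338, but 9 are in Tcs5/CHMP2B and 11 in RpS27/Nup37. The fws/Lamtor3 sequence holds the DRE, TATCGATA, at its right end. RpS27/Nup37 is 37.8% G or C and has its summit 15 bp upstream of RpS27, over a CAGCTG word. The 29 bases between Ripalpha and RpL7 are 69.0% G or C, hold the core of Motif 1, GGTCACAC, on the strand opposite to the one printed, and contain no summit.

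The 500 summits made up 12.2% of the IDR list (95% Wilson interval 11.3 to 13.3, counting error only) and 3.30% of the 25911 pooled candidates outside it (854 summits). Among as many of the highest candidates of each replicate alone, 534 lay at pairs in replicate 1 and 482 in replicate 2, a mean of 12.4% ± 0.898 (SD, n = 2). Of the pooled candidates at pairs, 500 of 1354 were kept in the IDR list, which is 36.9% (34.4 to 39.5), while 13.6% of all 30000 candidates were kept. Candidates within 500 bp of the TSS of a protein-coding gene but of no pair were kept in 1079 of 5531 cases (19.5%), and those away from protein-coding promoters in 2510 of 23115 (10.9%). The members fell in 482 separate regions and were assigned, by the least summed distance, to 481 pairs with 962 genes. Of those pairs, 462 had 1 member and 19 had 2, and 25 members had more than 1 pair in reach.

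Read from the genes, 526 of 2667 head-to-head pairs had a member within reach of both TSSs, or 19.7% of the pairs, and the replicates alone gave 19.5% ± 0.608 (SD, n = 2). A summit near 1 gene only was found for 214 pairs, and separate summits at each gene for 12. Of the 5052 genes in pairs, 1193 (23.6%) had an IDR summit within 500 bp of a TSS, against 771 of 8893 other protein-coding genes (8.67%) and 14.1% of all 13945; a gene in a pair can be counted through a summit that lies nearer its partner. The genes of the pre-mod(mdg4) locus on 3R, 20 overlapping annotated genes, gave 21 of the 526 pairs through a single summit with a score of 475. That peak overlapped no candidate of replicate 1 and ranked 915 in replicate 2. Without pairs of that locus the share was 505 of 2630 (19.2%).

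The distance between the start sites went with the presence of a member. With TSSs 200 to 300 bp apart (each class includes its upper limit and not its lower one), 171 of 542 pairs had a member (31.5%, 27.8 to 35.6), and with 300 to 500 bp 182 of 667 did (27.3%, 24.0 to 30.8). Closer pairs had members less often by this count: 71 of 429 pairs at 1 to 100 bp (16.6%, 13.3 to 20.4) and 60 of 357 at 100 to 200 bp (16.8%, 13.3 to 21.03). In steps of 50 bp the share was 17.1%, 16.1%, 19.2% and 13.4% up to 200 bp. It was 32.6%, 30.7%, 35.8% and 25.9% in the steps from 200 to 400 bp. At 400 to 450 bp it was 20% (14.2 to 27.4) and at 450 to 500 bp 22.05% (15.7 to 30.02). The intervals of these last steps hold the 19.7% of all pairs. Within the class from 300 to 500 bp the higher shares thus lay below 400 bp. The replicates gave 17.4% ± 1.15, 15.7% ± 0.396, 31.8% ± 2.21, 25.7% ± 3.71 and 6.70% ± 1.47 (SD, n = 2) over the 5 distance classes from the closest to the widest. The classes from 200 to 500 bp lay above the other 3 in each replicate.

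**Figure D1:**
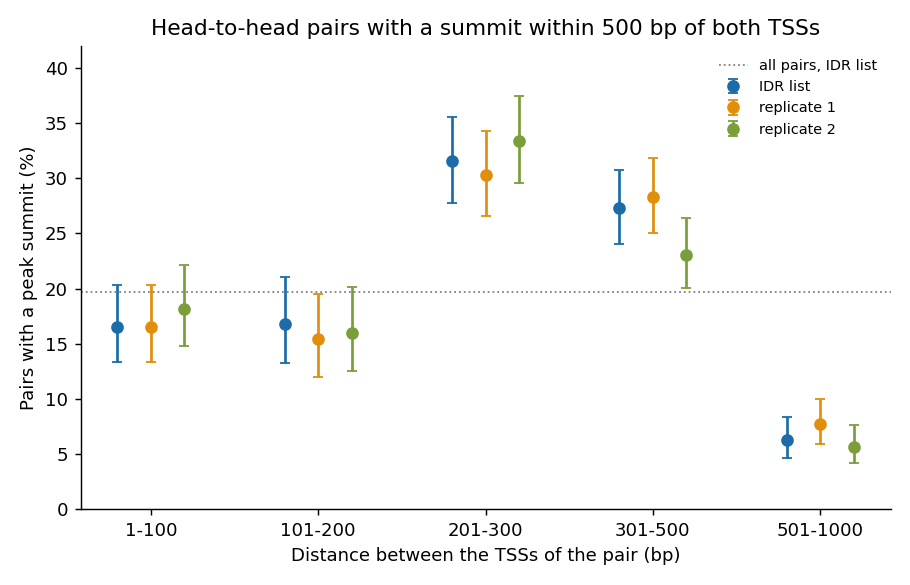
Share of head-to-head pairs with a summit within 500 bp of both TSSs (vertical axis, percent) by distance between the TSSs (horizontal axis, bp), for the IDR list and for as many highest candidates of each replicate. Bars are 95% Wilson intervals and the dotted line is the share over all pairs in the IDR list, 19.7%; the classes from 200 to 300 and from 300 to 500 bp lie above that line in all 3 lists.

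The stretch that lies within 500 bp of both TSSs shrinks as the TSSs move apart, so the widest pairs had least room. Its length was taken from the closest TSSs of each gene pair, but each summit was classed by the TSS pair it went to. These can differ for genes with several TSSs, so the rates per kilobase are approximate. Per kilobase of that stretch there were 0.128 summits at 1 to 100 bp, 0.170 at 100 to 200 bp, 0.415 at 200 to 300 bp, 0.435 at 300 to 500 bp and 0.252 at 500 to 1000 bp. Candidates outside the IDR list gave 0.331, 0.337, 0.418, 0.759 and 0.691 over the same classes. The share of candidates kept was 28.0%, 33.5%, 49.9%, 36.4% and 26.7%, and was thus highest at 200 to 300 bp, where 168 of 337 were kept (44.5 to 55.2).

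Most summits lay in the shared DNA itself. Between the TSSs were 404 summits (80.8%, 77.1 to 84.0), against 605 of 854 candidates outside the IDR list (70.8%, 67.7 to 73.8), and the replicates alone gave 84.5% and 78.4%. At IDR peaks of promoters outside pairs, 857 of 1079 summits (79.4%, 76.9 to 81.7) lay upstream of the nearest TSS. A place upstream of the start was thus about as common there as at pairs. Outside every annotated exon were 395 summits. The position changed with the room available: 10 of 52 summits lay between TSSs 1 to 100 bp apart, 28 of 52 at 100 to 200 bp, 149 of 168 at 200 to 300 bp, 167 of 178 at 300 to 500 bp and all 50 at 500 to 1000 bp. Measured at each gene pair's closest TSSs, the DNA between them made up 6.02%, 17.1%, 34.1%, 63.1% and 100% of the stretch in reach of both. That all 50 summits at 500 to 1000 bp lay between the TSSs thus follows from the rule. The replicates' own summits gave 13.6% ± 0.191, 67.1% ± 2.38, 88.1% ± 3.17 and 92.9% ± 4.57 between the TSSs (SD, n = 2) in the first 4 classes.

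**Figure D2:**
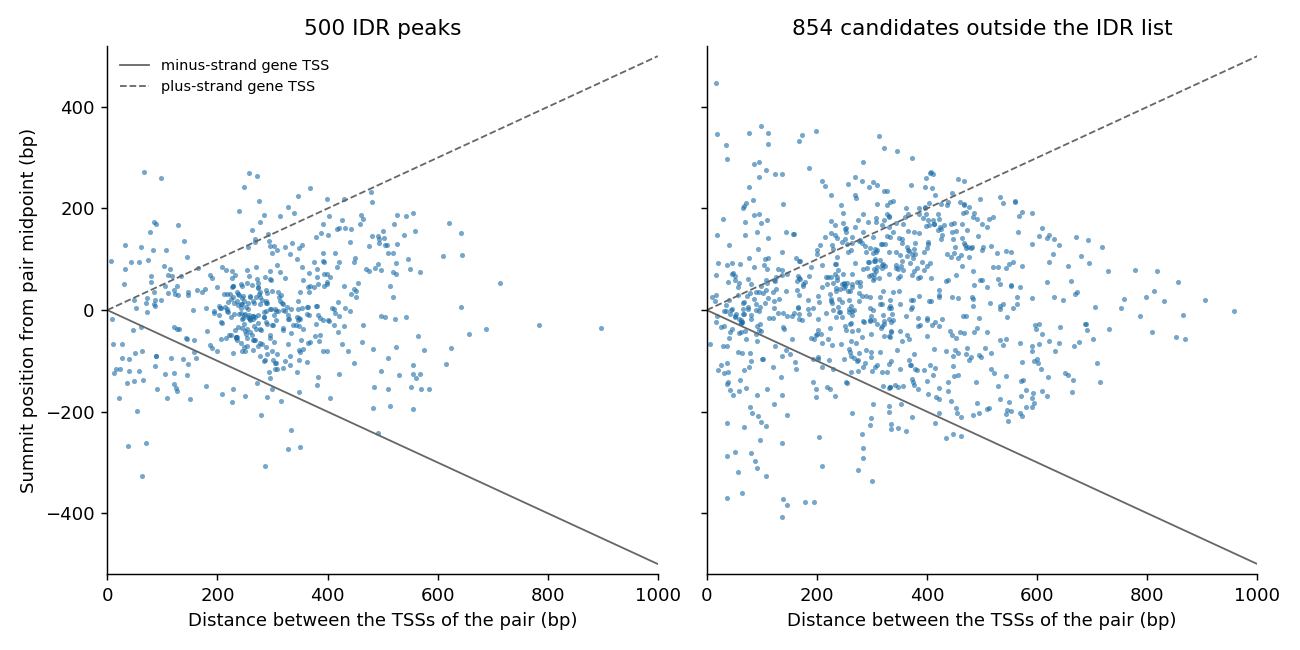
Summit position from the midpoint of its pair (vertical axis, bp, positive toward the plus-strand gene) against the distance between the TSSs (horizontal axis, bp), for the 500 IDR peaks and the 854 candidates outside the list. Lines mark both TSSs; of the IDR summits 404 lie between the lines, and those at 200 to 300 bp gather near the midpoint.

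At pairs 200 to 300 bp apart the summit sat close to the middle, with a median distance from the midpoint of 40.2 bp, against 83.0 bp for candidates outside the IDR list. There the median summit was 169 bp upstream of the farther TSS and 85.0 bp upstream of the nearer one. At the closest pairs, 1 to 100 bp, it was 124 bp upstream of the farther TSS and 71.0 bp inside the gene of the nearer one (median of −71.0 bp upstream). Of the 42 such summits outside the gap, 26 lay on the side of the minus-strand gene and 16 on that of the plus-strand gene. At the widest pairs the medians were 392 bp and 169 bp upstream. The nearer gene was the minus-strand one for 243 members and the plus-strand one for 256.

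The side on which a summit fell was the same in the replicates for most members. Candidates of both replicates overlapped 452 members; the replicates' summits were a median of 24.0 bp apart, and 331 (73.2%) were within 50 bp. They lay on the same side of the midpoint for 375 of the 452, and for 43 of 44 at the closest pairs, where 36 of 44 lay outside the gap in both replicates. At 200 to 300 bp, where summits are near the midpoint, 115 of 151 shared a side.

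The strongest member was at Chro/Ssl1 on 3L, the promoters of the chromodomain protein Chromator and of a subunit of the general transcription factor TFIIH, with a score of 2001 in the pooled scale and rank 43 of the IDR list. It ranked 40 in replicate 1 and 43 in replicate 2. Its TSSs are 105 bp apart and its summit was 73 bp inside Chro, in an exon, and 178 bp upstream of Ssl1. Art3/mRpS10 on 3R had rank 44, with ranks 36 and 52 in replicates 1 and 2, and its summit was 118 bp upstream of Art3 and 139 bp upstream of mRpS10. These summits differ in place: the first lies outside its gap and the second near the middle of one of 257 bp.

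The other pairs among the strongest held genes of varied roles. Pex11ab/CG8320 on 2R, with a gene of peroxisome division, ranked 48, and its summit was 144 bp upstream of Pex11ab and 111 bp inside CG8320. mRpS23/CenG1A on 2L ranked 49 with TSSs 492 bp apart, and the summit was 100 bp upstream of CenG1A, an Arf GTPase-activating protein, and 392 bp upstream of mRpS23. The placement thus differed between pairs of different width.

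Tcs5/CHMP2B ranked 55 in the IDR list, 48 in replicate 1 and 61 in replicate 2, and its summit was 98 bp and 126 bp upstream of the genes. Fbw5/CG9147 ranked 58 and had its summit 135 bp upstream of Fbw5, at the start of CG9147. Lon/PIG-F ranked 79, with ranks 72 and 87 in the replicates, and was 142 bp and 114 bp upstream.

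In the short Ripalpha/RpL7 gap printed above, the summit was 36 bp inside RpL7 and 66 bp upstream of Ripalpha, with rank 94 in the IDR list, 81 in replicate 1 and 121 in replicate 2. CG11309/CG7632, with TSSs 39 bp apart, ranked 86, and its summit was 77 bp inside CG11309. mRpL23/CG9004, with TSSs 50 bp apart, ranked 135, and its summit was 59 bp inside mRpL23. In these 3 close pairs the summit was upstream of 1 gene and inside the other.

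The strongest member at TSSs over 500 bp apart was Stt3A/bves on X, an oligosaccharyltransferase subunit and a Popeye-domain protein, with rank 141 and a summit 199 bp upstream of bves. It ranked 179 in replicate 1 and 118 in replicate 2. The widest pair with a member was CG13605/Root, the rootletin gene, with TSSs 897 bp apart and rank 3734. There the summit was 413 bp and 484 bp upstream, near the limit of 500 bp.

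**Figure D3:**
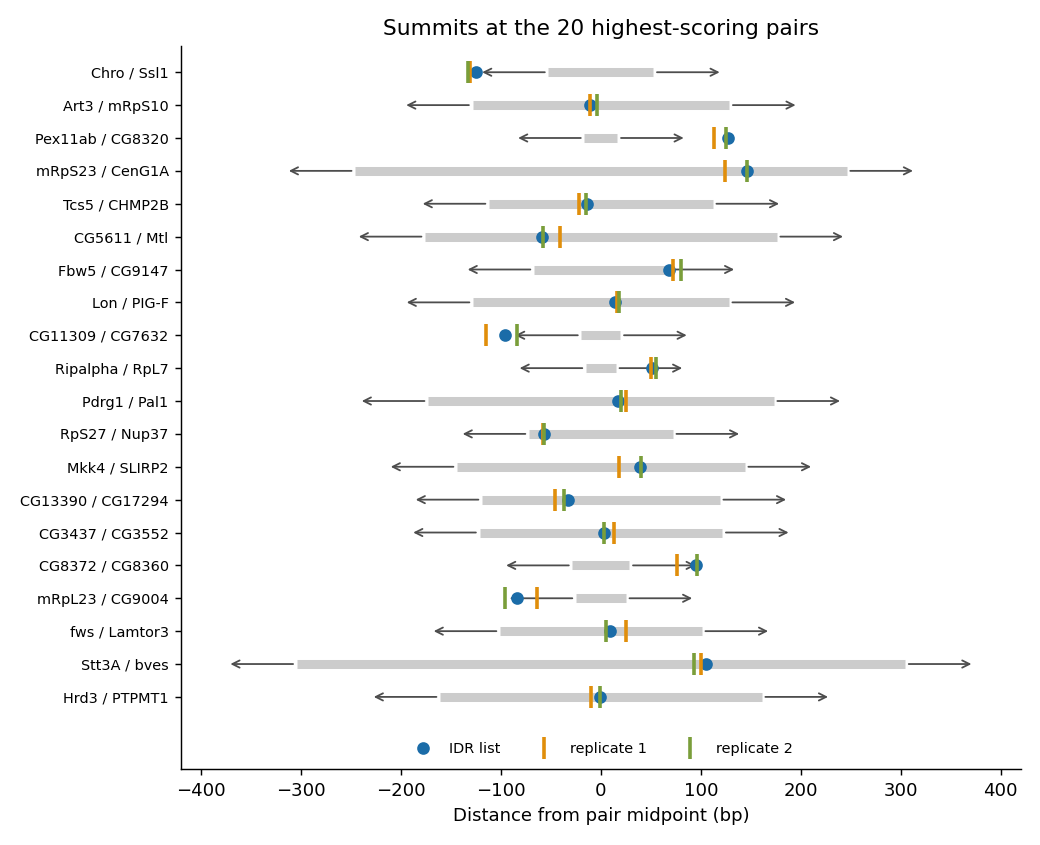
Summits of the 20 highest-scoring members that also overlap a top-ranked candidate in each replicate, by distance from the midpoint of the pair (horizontal axis, bp). Grey bars are the DNA between the TSSs, arrows point along the genes, dots are IDR summits and ticks the replicates' summits; at Chro/Ssl1 the dot lies left of the bar and at Art3/mRpS10 inside it.

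Over all members the median score was 286 (range 163 to 2001), against 275 at IDR peaks of promoters outside pairs and 253 at the other IDR peaks. The median rank of members was 1776 of 4089. Ranks 1 to 2044 held 278 members (55.6%, 51.2 to 59.9). Against the 12.2% of the whole list, ranks 1 to 50 held 4 members (8%, 3.16 to 18.8), and the 450 ranks from 51 to 500 held 68 (15.1%, 12.1 to 18.7). The 1500 ranks that follow held 203 (13.5%, 11.9 to 15.4) and the remaining 2089 held 225 (10.8%, 9.51 to 12.2). By distance class the median score was 314, 260, 310, 268 and 256 from the closest to the widest pairs.

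Among the highest 4089 candidates of both replicates were 372 members (74.4%, 70.4 to 78.0), near the 76.5% of all IDR peaks. Ranks in the replicates went together across the 452 members with a candidate in each (Spearman's rho 0.833, a description over peaks that share libraries). In replicate 1, 45 members (9%, 6.79 to 11.8) overlapped none of its 30000 candidates, against 47 of 1079 peaks at other promoters (4.36%, 3.29 to 5.74) and 28 of 2510 elsewhere (1.12%). In replicate 2, 3 members lacked a candidate (0.6%), near the 6 of 1079 peaks at other promoters (0.556%) and 16 of all 4089 (0.391%). The candidates of replicate 1 held fewer promoter summits as a whole. Within 500 bp of a protein-coding TSS lay 5604 of them, against 8021 in replicate 2, and at pairs 1085 against 1617. The highest of the 45 was Gk1/CG13876, a glycerol kinase and an uncharacterised gene, with a score of 552, rank 553 in the IDR list and rank 646 in replicate 2. None of the 45 was on X, which held 49 of all 500 members. The 45 rest on replicate 2 and the pooled list alone.

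**Figure D4:**
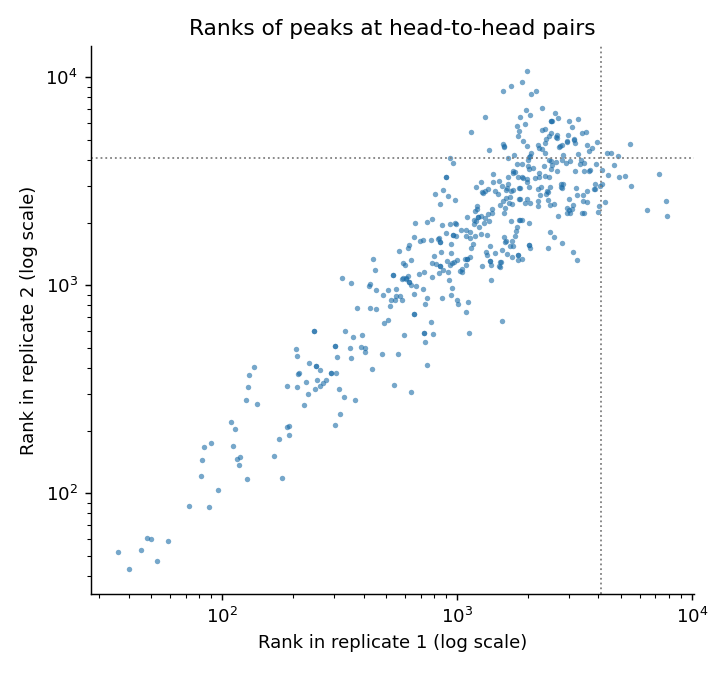
Rank in replicate 1 (horizontal axis) against rank in replicate 2 (vertical axis), both on log scales, of the 452 members that overlap a candidate of each. Dotted lines mark rank 4089, the size of the IDR list; the points run along the diagonal, with rho 0.833.

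The share of peaks at pairs was lowest on X among the 5 large arms. There 49 of 690 IDR peaks were members (7.10%, 5.41 to 9.26), while 2L, 2R, 3L and 3R had 12.8%, 13.0%, 12.4% and 14.8%. Of the candidates at pairs on X, 25.1% were kept (19.6 to 31.7), against 42.3% on 2L (36.3 to 48.5), 40.3% on 3R (35.3 to 45.5), 37.4% on 2R (31.6 to 43.6) and 36.3% on 3L (31.1 to 41.8). The intervals of 2R and 3L meet that of X. From the pairs' side, 52 of 403 on X had a member (12.9%), and the replicates gave 13.8% ± 0.175 on X, 20.6% ± 0.556 on 2L, 16.9% ± 0.651 on 2R, 21.6% ± 1.37 on 3L and 22.6% ± 0.518 on 3R (SD, n = 2). Each replicate placed X below the other 4 large arms.

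Cytosolic ribosomal protein genes, which nearly all cells express highly, had the highest share of 12 gene lists. Of 53 in pairs, 31 were in a pair with a member (58.5%, 45.1 to 70.7), against 995 of all 5052 genes in pairs (19.7%, 18.6 to 20.8). No pair joined 2 of them. Ribosomal protein genes outside pairs had a peak in 23 of 35 cases (65.7%, 49.1 to 79.2), against 8.67% of all genes outside pairs. With a window of 250 bp, 16 of the 53 genes were in a pair with a member. At that window 13.2% of all pairs had a member, which is a share of pairs and not of genes. The highest were Ripalpha/RpL7 and RpS27/Nup37, with scores of 1210 and 1186. RpS27/Nup37 ranked 82 in replicate 1 and 145 in replicate 2. RpL28/eIF1 joins a ribosomal protein and a translation initiation factor, and had a score of 702. Dref/RpL13 holds the gene of the DRE-binding factor itself, and its member had a score of 577 with a summit 78 bp upstream of Dref and 6 bp upstream of RpL13.

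The other 11 lists ran from 9.68% to 25%. Genes of mitochondrial ribosomal proteins had a member in 12 of 59 cases (20.3%), and 3 of these pairs, with mRpS10, mRpS23 and mRpL23, were among the 20 strongest. Translation factors had 7 of 28, led by eIF4EHP/CG18428 with a score of 904; eIF4EHP is a cap-binding repressor of translation. Aminoacyl-tRNA synthetases had 5 of 22, led by Hem/IleRS with 509, which had no candidate in replicate 1.

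Oxidative phosphorylation genes had 9 of 44, led by ND-ASHI/Fum1 with 505, a complex I subunit beside a fumarase. RNA polymerase subunits and general factors had 13 of 56, led by CG10584/Polr3E with 631 and 140up/Polr2B with 548. DNA replication genes had 6 of 24, led by CG13933/PolD2 with 646, and included a pair with both genes from the list, RPA1/Mcm2, with a score of 226. Vesicle transport genes had 12 of 61, led by Fur1/Vps33B with 733 and Vha100-2/Vti1b with 650.

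Nuclear pore genes had 4 of 18, proteasome genes 3 of 26, splicing factors 3 of 31, and heat shock proteins and chaperonins 2 of 14. The highest proteasome pair, l(2)37Bb/Rpn3, had a score of 350, the highest splicing pair, U2af50/PIG-Q, 462, and the highest chaperone pair, Hsc70-5/CG8531, 525. No candidate of replicate 1 overlapped the members at l(2)37Bb/Rpn3 and Rpn6/ave, which are among the 3 proteasome pairs. The Wilson intervals of all 11 lists hold the 19.7% of all genes in pairs. Over the 11 lists, genes outside pairs had a peak in 14 of 226 cases (6.20%).

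The DNA under the members was low in G and C. Within 50 bp of the summit it was 31.7% G or C (SD over summits 9.58), against 37.0% (SD 9.92) at candidates outside the IDR list, 35.2% at IDR peaks of other promoters and 34.3% at the IDR peaks elsewhere. The replicates' own highest summits at pairs gave 31.6% ± 0.283 (SD, n = 2). At the midpoint of the pair, a place set by the annotation, pairs with a member had 30.4% and those without 34.2%. These 2 sets also differ in TSS distance, and its part in the midpoint values was not tested. The pairs with a member include the 21 of the pre-mod(mdg4) locus, each counted as a midpoint. By class from the closest to the widest pairs the members had 33.7%, 33.9%, 29.9%, 32.1% and 32.2%, and the candidates outside the list 42.7%, 40.9%, 36.2%, 35.4% and 32.9%. The values thus lay close together at pairs over 500 bp wide.

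**Figure D5:**
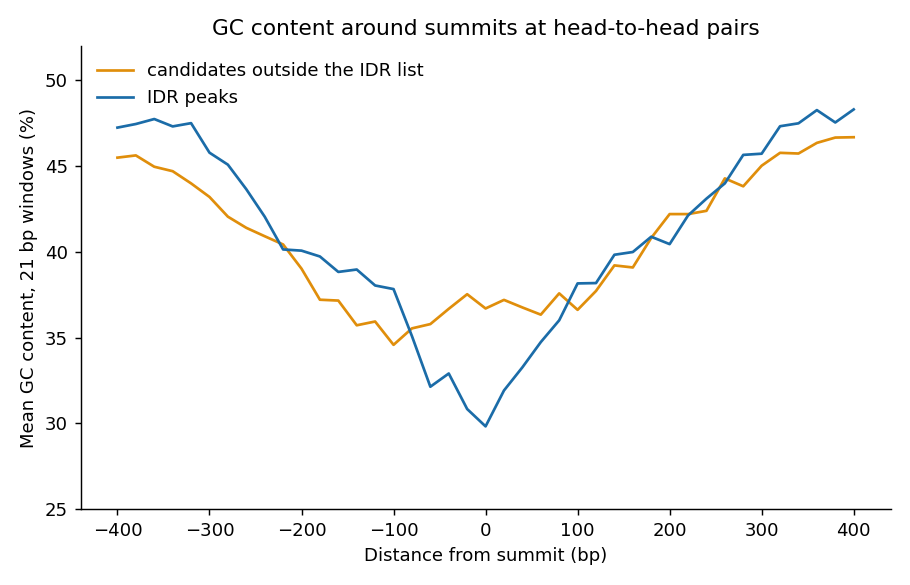
Mean G and C content in windows of 21 bp (vertical axis, percent) by distance from the summit (horizontal axis, bp), for the 500 members and the 854 candidates outside the IDR list at pairs. The members' curve has its lowest value at the summit, 29.8%, and is 45.8% and 45.7% at 300 bp on the left and right; the candidates' curve is 36.7% at the summit.

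The profile around the members had its lowest point, 29.8%, at the summit and stood at 37.8% and 38.2% at 100 bp on either side. The profile of the other candidates was 36.7% at their summits, and its lowest value, 34.6%, was 100 bp to the left. Base composition can alter fragment recovery and amplification in sequencing, and its part in the scores was not tested.

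Of 12 short words searched on both strands within 50 bp of the summit, none was present at most of the members. The commonest was TATAAA, at 146 members (29.2%, 25.4 to 33.3), against 18.0% of candidates outside the list, 21.6% of midpoints of pairs without a member and 24.0% of IDR peaks at other promoters. The windows of these sets also differ in G and C content, as given above, and its part in the word's share was not tested. The short BEAF-32 site, CGATA, which is also inside the DRE, was at 21.6% (18.2 to 25.4) of members and 27.8% (24.9 to 30.9) of those candidates. The DRE, TATCGATA, was at 22 members (4.40%, 2.92 to 6.57) and 5.15% of the candidates, but at 1.67% (1.06 to 2.62) of IDR peaks at other promoters. Motif 1's core, GGTCACAC, was at 13 members (2.60%, 1.53 to 4.40), 5.50% of the candidates and 0.834% (0.439 to 1.58) of IDR peaks at other promoters. The GAGA factor's word, GAGAGA, was at 6 members (1.20%, 0.551 to 2.59), 2.93% of the candidates and 4.63% (3.53 to 6.06) of IDR peaks at other promoters.

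The Pho word, GCCAT, was at 14.8% of members and 13.9% of the candidates. CAGCTG, an E-box of core promoters, was at 4.40% and 7.61%, but at 13.2% and 15.1% with 100 bp on either side. CACGTG was at 1.40% and 0.703%. The forkhead word TGTTTAC was at 4.80% and 4.57%, and the Zelda word CAGGTAG at 0.4% and 0.351%. TATTTACA and TGCAAACA, which had ranked high in an earlier look at these peaks, were at 2.40% and 1.00% of members and at 1.76% and 1.41% of the candidates. At IDR peaks away from promoters they were at 4.18% (3.47 to 5.04) and 2.23% (1.72 to 2.89). TATTTACA was at 1.90% of midpoints of pairs with a member and 1.64% of those without. TGCAAACA was at 3.04% and 0.794% of these midpoints. The pairs with a member include the 21 of the pre-mod(mdg4) locus, all in reach of a single summit. Windows at their midpoints can overlap and hold the same copy of a word. No share without that locus is given here. The sources used here give no binding word for CG3407.

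The 19 pairs with 2 members had summits 199 to 246 bp apart, with a median of 204 bp. No 2 neighbouring summits of the whole IDR list were closer than 199 bp, so these pairs sit near the least spacing the list holds. Kap-alpha3/Son, an importin and an RNA-binding protein, had scores of 737 and 308 at summits 205 bp apart, and RpL34b/CG8132 had 651 and 245. Ribosomal protein genes were in RpL18/Neos, RpL28/eIF1, RpL32/CG7943 and RpL34b/CG8132.

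Just inside the window of 500 bp were CG13605/Root and Acbp1/Piezo, among others, with the farther TSS at 484 and 482 bp. Just outside were tank/CG12194, TTLL5/vig2 and GrlHz/CG42694, at 505, 505 and 507 bp, and the first of these had a score of 1280 and rank 85. The last members by score were Sps1/conv, Snrk/Usp20-33 and neur/hyx, at 163.2, 162.9 and 162.8, and the first candidates at pairs below the list were TrxT/dhd, CG15027/Dbct and Dg/mRpL34, at 162.7, 162.4 and 161.3.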

How the data were processed

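CG3407-GFP ChIP-seq was done on 2 embryo samples, replicates 1 and 2 of 1 group. Per the file headers, the authors' deposited lists hold 30000 candidate intervals for each replicate and for both together, mixing peaks and background, made against a control file, and the IDR list of 4089 was made from these. No source used here gives the aligner, the peak caller or the IDR threshold. The deposited score of each interval is the peak caller's own, on a scale of each list, and was used within a list or as a rank; the deposited offset gives the summit. The IDR list holds the 4089 highest of the pooled candidates, so its members need not have been called in each replicate. The lists give no read counts, so the depth is unknown.

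Genes and TSSs came from Ensembl release 115 on the same assembly as the lists, dm6, and sequences from RefSeq's copy of it. Any TSS of a protein-coding gene counted, and a summit went to the TSS pair with the least summed distance. Distances are in bp, positive upstream. The replicates were compared through their 4089 highest candidates and overlaps of at least 1 bp. Intervals are 95% Wilson intervals and cover counting error only; peaks beside each other, and genes on a shared promoter, are not independent observations. SDs over replicates have n = 2. With 1 group no test between conditions was possible, and shares across peaks were described with no p-value. Named pairs are the 20 highest members in both replicates' highest candidates, the highest of each distance class, the 3 highest of each of 12 gene lists (some pairs that the rule names are not reported here), the widest pair, pairs with most members and those nearest each limit. Cp190/CG4338, Dref/RpL13 and Gk1/CG13876 were chosen after their values were seen. Gene lists were made from gene symbols. The members, lists and words searched were chosen with earlier results of these data known. Alternatives were the outermost TSS of each gene, a window of 250 bp, TSSs at most 500 bp apart, the 2044 highest IDR peaks, 1 replicate alone, 1 summit per region, reciprocal overlap of 50% and 100 bp around summits for words. The scripts were tested on simulated data. Python 3.11.15, NumPy 2.4.6 and pandas 2.3.3 were used.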

Additional observations from a re-analysis of the deposited data

How the results depend on the processing

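The share of IDR peaks at pairs, 12.2%, became 10.9% with the outermost TSS of each gene, 7.73% with a window of 250 bp, 11.1% with TSSs at most 500 bp apart and 13.6% in the 2044 highest peaks. The share of pairs with a member, 19.7%, became 13.2%, 24.1% and 11.6% with the last 3 of these, and ran from 19.05% to 19.91% when a replicate was left out. The median rank of members moved from percentile 43.4 to 48.8 within the 2044 highest peaks. The share of members in both replicates' highest candidates, 74.4%, was 58.0% with reciprocal overlap of 50% and 93.5% for the 2044 highest peaks. The share of summits between the TSSs moved by less than the spread between replicates under every alternative run. With the outermost TSSs the classes of TSS distance gave 16.1%, 15.9%, 31.0%, 26.7% and 6.12% of pairs with a member. Of 24 word shares under alternatives 20 moved, 11 with 100 bp either side and 9 in the 2044 highest peaks. The 11 all rose, a direction fixed in advance because the wider window holds the narrower one. Of 24 gene list counts 7 moved. Leaving out the pre-mod(mdg4) pairs, chosen after seeing the data, gave 19.2%. No paired analysis was possible because there is 1 group. The depth is unknown, and no control or untagged peaks were analysed here.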

Other observations

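The word GGCAAC was picked from the printed sequences after they were seen (RpS27/Nup37 and Tcs5/CHMP2B hold it near an end), so its counts are a description. At pairs with TSSs more than 200 bp apart, it was searched on either strand in the 50 bp upstream of both TSSs. In the 395 pairs with a member it was found in 76 of 790 such windows (9.62%, 95% Wilson interval 7.76 to 11.9). Pairs with candidates outside the IDR list alone gave 51 of 872 (5.85%, 4.48 to 7.61), and pairs without a candidate 82 of 2100 (3.90%, 3.16 to 4.82). A start site in several pairs gave a window for each, so windows can repeat the same DNA. The pairs with a member include some of the pre-mod(mdg4) locus, which share a single summit. From 51 to 100 bp upstream the shares were 2.28%, 2.64% and 2.43%. Within 50 bp of the members' summits it was at 23 of 500 (4.60%), fewer by share than the 65 of 854 (7.61%) at candidate summits outside the IDR list. Within 50 bp of the TSS it read in the direction of the gene in 62 windows and on the other strand in 16 in pairs with a member, in 32 and 20 in pairs with candidates outside the list alone, and in 53 and 29 in pairs without a candidate. In both printed sequences named above it lies near the minus-strand gene and reads on the other strand. RpS27/Nup37, with TSSs 144 bp apart, is not among the pairs counted. Tcs5/CHMP2B, with TSSs 224 bp apart, is among them, so the count includes a sequence from which the word was picked. No test was made, and no factor is named for the word here.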
